A study of Mus musculus with 10 samples.

Results

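The neurotrophins are small secreted growth factors known mainly from the nervous system, where they govern the survival and growth of neurons. Described here are 7 genes of this family and its receptors, of 45706 genes in the deposited tables. They were chosen by symbol, and because earlier results on the same libraries had shown their levels to move during reprogramming. The ligands are Bdnf (brain-derived neurotrophic factor), Ntf3 (neurotrophin-3) and Ntf5 (neurotrophin-4/5). The receptors are Ngfr (the p75 neurotrophin receptor), Ntrk2 (TrkB), Ntrk3 (TrkC) and Sort1 (sortilin). All 7 passed the filter on low counts, some of them through the reads of 1 or 2 stages only.

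The Trk receptors are tyrosine kinases. TrkB binds BDNF and neurotrophin-4/5, and TrkC binds neurotrophin-3. The p75 receptor belongs to the tumour necrosis factor receptor family, has no kinase, binds all mature neurotrophins and, together with sortilin, binds their uncleaved precursors. Outside neurons, p75 is known as a surface marker of neural crest cells and of several mesenchymal and epithelial progenitors, and Trk genes also produce shorter receptors that lack the kinase.

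RNA was sequenced from mouse cells on the way from fibroblasts to pluripotency, in 5 groups of 2 libraries. All libraries carry the strain label C57BL/6 x 129 and 1 batch label. Embryonic fibroblasts (MEF) of the genotype OKSM Col1a1/M2rtTA ROSA26 were kept in MEF medium without doxycycline and were not sorted. This genotype lets doxycycline switch on Oct4, Klf4, Sox2 and Myc from 1 cassette in the Col1a1 locus. Cells of the same genotype were taken at day 3 (D3), day 6 (D6) and day 9 (D9) in medium for stem cells with 1 µg/ml doxycycline and 50 µg/ml ascorbic acid. D3 cells were the unsorted culture, and D6 and D9 cells were sorted for the surface epitope that the labels write as SSEA+. Embryonic stem cells (ESC) of the line V6.5 grew unsorted on irradiated feeder cells with LIF. Nothing in the labels says that the 2 libraries of a group came from separate cultures, so errors here cover the spread between those libraries only. D3 differs from MEF in medium as well as in the induced factors, and D6 differs from D3 in sorting as well as in time, so these cannot be told apart.

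Library totals ran from 29585876 to 38275024 estimated reads. Levels are given as CPM, read counts brought to a common library total with TMM scaling, and as TPM, which also allows for transcript length, where genes are compared with each other. The summed CPM of 10 fibroblast markers, such as Col1a2, Col3a1 and Thy1, was 33120 to 33349 in MEF, 3178 to 3188 in D3, 142 to 148 in D6, 59.8 to 65.5 in D9 and 2769 to 2941 in ESC. Of these markers 2, Pdgfra and Lum, were under 0.5 CPM in D6 and D9. The sum of 6 pluripotent cell markers was 4.57 to 5.06 CPM in MEF and 4579 to 4711 CPM in ESC. Each of these sums was thus highest in the group labelled with that cell type, and the ESC libraries also held transcripts of fibroblast genes. In RNA from whole cultures, fewer cells of a type and less RNA per cell cannot be told apart. The MEF libraries carried transcripts of the Y-linked gene Ddx3y (88.5 CPM) and little Xist (0.766 CPM), whereas Ddx3y was at 0.0713, 0.164 and 0.0987 CPM and Xist at 1010, 1304 and 1075 CPM in D3, D6 and D9. MEF thus differed in these sex-linked genes from all 3 induced stages, and the labels do not say whether MEF and induced cells came from the same embryos. In ESC, Ddx3y was at 26.5 CPM and Xist at 10.2 CPM. Every comparison of D3, D6 or D9 with MEF or with ESC is thus between libraries that differ in this way too, whose part was not tested.

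The p75 receptor gene Ngfr had the highest level per length of the 7 genes at D3, D6 and D9. It lies on chromosome 11 at 95568818 to 95587735 on the minus strand (GRCm38), and all its reads came from 1 transcript. The 2 MEF libraries had 3.73 and 3.63 CPM. The 2 D3 libraries had 105 and 104 CPM, the D6 libraries 246 and 243 CPM, the D9 libraries 186 and 188 CPM, and both ESC libraries 15.0 CPM. Levels were therefore lowest in MEF, highest at D6 and low again in ESC, and no 2 stages overlapped.

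As fitted, Ngfr differed by 4.83 ± 0.05 (log2, SE) between D3 and MEF and by 1.23 ± 0.03 between D6 and D3. It then fell by 0.39 ± 0.03 from D6 to D9 and was lower by a further 3.64 ± 0.04 in ESC, which still lay 2.03 ± 0.07 above MEF. In mean TPM, Ngfr went from 0.528 ± 0.0166 (SD, n = 2) in MEF to 35.5 ± 0.566 in D6. At D6 that level was above 90.9% of 21934 protein-coding genes, against 45.9% in MEF. At its peak, Ngfr had 16.3 times its ESC level.

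A promoter window of Ngfr is shown because this gene had the highest level per length of the 7 from D3 to D9, next to that of the receptor gene Ntrk2, which was lower in those stages than in MEF. Each line gives the 250 bases before a start site in RefSeq (GRCm38.p6), 5′ to 3′, with CACCC on either strand in capitals (GGGTG on the printed strand is its reverse complement). This short motif is the core of many sites bound by Krüppel-like factors such as KLF4.
Ngfr, chr11:95587699-95587948, minus strand: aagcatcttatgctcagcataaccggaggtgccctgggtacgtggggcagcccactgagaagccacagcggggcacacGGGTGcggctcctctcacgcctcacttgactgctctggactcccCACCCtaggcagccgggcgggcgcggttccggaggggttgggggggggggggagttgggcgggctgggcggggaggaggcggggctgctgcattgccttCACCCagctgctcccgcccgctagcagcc
Ntrk2, chr13:58806319-58806568, plus strand: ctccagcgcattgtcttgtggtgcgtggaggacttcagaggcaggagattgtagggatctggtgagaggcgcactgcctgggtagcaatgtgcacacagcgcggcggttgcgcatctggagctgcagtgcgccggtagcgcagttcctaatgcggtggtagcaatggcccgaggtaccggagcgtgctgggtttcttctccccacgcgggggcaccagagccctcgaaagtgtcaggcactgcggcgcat
These start sites are not those of the transcripts counted. The last 37 bases of the Ngfr window lie in the first exon of Ngfr-001, and the Ntrk2 window ends 1128 bases before Ntrk2-201 and 1712 before Ntrk2-202 in GENCODE M21. The Ngfr window held 3 matches, 1 of them inside that exon, and the Ntrk2 window 0. A match was also in 5 of 7 windows of Bdnf and in 1 of 2 of Ntf3, genes that were lower in D3 than in MEF. Among 32851 RefSeq promoter windows of this length, 52.0% held at least 1 match, with a mean of 0.833. The Ngfr window is rich in G and C, at 70.4%, and that of Ntrk2 has 62.8%. The motif TGANTCA, the core recognised by AP-1 factors, was in neither printed window, in 1 of the 7 Bdnf windows and in 6.75% of all windows. A match of letters is not a bound site, and binding was not measured in these files. RefSeq promoters were at hand for 4 of the 7 genes (Ngfr, Ntrk2, Bdnf and Ntf3).

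Sort1 (chromosome 3 at 108284082 to 108361511, plus strand) encodes sortilin, a sorting receptor that carries proteins between the Golgi, the surface and lysosomes and is the partner of p75 for precursor neurotrophins. Its libraries had 35.3 and 34.2 CPM in MEF, 70.5 and 72.3 in D3, 74.3 and 70.1 in D6, 67.9 and 69.0 in D9, and 31.6 and 32.4 in ESC. The 3 induced stages were thus all near 70 CPM and overlapped or lay close, at 197% to 208% of MEF, while MEF and ESC were close to each other. Sort1 was higher by 1.04 ± 0.05 (log2, SE) in D3 than in MEF and lower by 1.09 ± 0.05 in ESC than in D9. The D3 value sits at the minimum of 1 used for calls, with 0.91 under DESeq2, 0.97 in a fit of MEF and D3 alone and 0.95 at a filter of 10 CPM in 2 libraries. ESC lay 0.12 ± 0.05 below MEF, and 0.22 above it when libraries were scaled by total reads alone. Nearly all reads went to a pair of coding transcripts. The one with 20 exons (Sort1-001) held 59.0% in MEF and 64.5% in ESC, and the one with 21 exons (Sort1-004) held 40.6% and 35.3%.

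**Figure D1:**
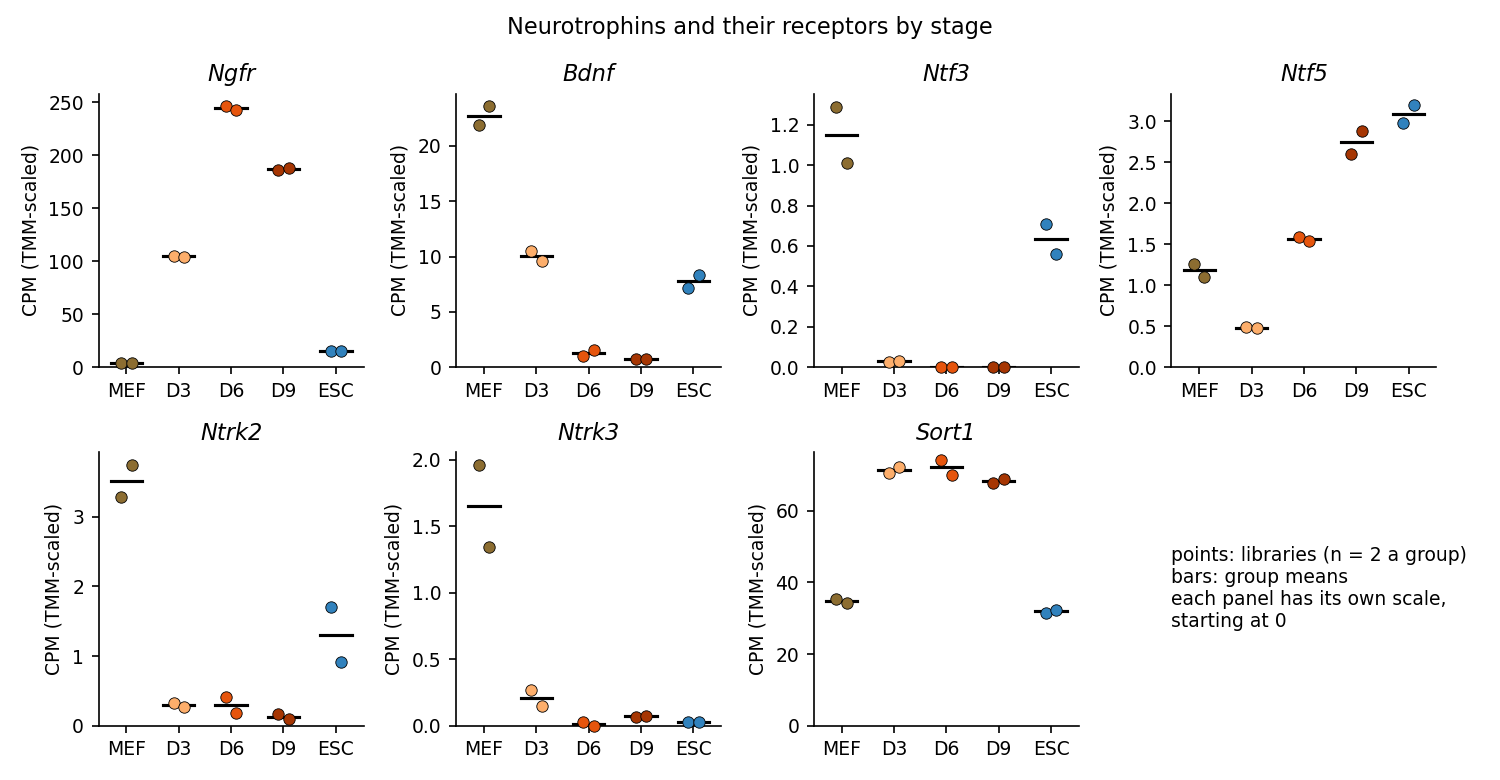
CPM (TMM-scaled, vertical axis) of the 7 genes by stage, with points for the 2 libraries of a group, bars for group means, and a scale of its own in each panel. Ngfr peaks at D6 (246 and 243 CPM), Sort1 is high from D3 to D9, Bdnf, Ntf3, Ntrk2 and Ntrk3 are highest in MEF, and Ntf5 is highest in ESC.

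The ligand with the most reads was Bdnf (chromosome 2 at 109674700 to 109727007, plus strand), which in the brain supports neurons and synapses through TrkB. It had 21.9 and 23.6 CPM in MEF, 10.5 and 9.58 in D3, 1.00 and 1.57 in D6, 0.739 and 0.783 in D9, and 7.19 and 8.36 in ESC. The stages were separate in the order MEF, D3, ESC, D6, D9, so Bdnf was lowest at D6 and D9, the 2 stages with the most Ngfr. It fell by 1.18 ± 0.12 (log2, SE) from MEF to D3 and by 2.96 ± 0.17 from D3 to D6. The difference between D9 and D6 was -0.75 ± 0.25, resting on 54 and 86 reads, and was -1.04 without D6 replicate 1 and -0.39 without D6 replicate 2. ESC was above D9 by 3.34 ± 0.19 and below MEF by 1.55 ± 0.12. D9 held 3.34% of the MEF level and ESC 34.1%.

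Bdnf is known for many alternative first exons spliced to 1 shared coding exon. In MEF, 89.1% of its reads were assigned to the transcript Bdnf-007, whose first exon spans 109693563 to 109693909 of chromosome 2, and this share was 84.4% in D3 and 82.3% in ESC. At D9 all 54 reads were assigned to Bdnf-011, which starts upstream at 109693027 with a first exon ending at 109693107. At D6 the 2 libraries disagreed. Replicate 1 had 25 reads on Bdnf-007 and 0 on Bdnf-011, and replicate 2 had 0 and 52. The assignment at D6 therefore did not repeat between libraries, and since all forms share the coding exon it depends on few reads.

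Ntf3 encodes neurotrophin-3, the ligand of TrkC (chromosome 6 at 126101412 to 126166910, minus strand). It had 35 and 33 reads in MEF (1.29 and 1.01 CPM), 1 read in each D3 library, 0 reads in all 4 libraries of D6 and D9, and 24 and 21 reads in ESC (0.707 and 0.561 CPM). Transcripts were thus seen in MEF and in the separate ESC line, and were at or near the limit of detection at D3, D6 and D9. MEF was 40.3 times D3, with a 95% interval of 10.7 to 340 from the read counts alone (exact binomial). Against a floor of 3 counts over the group, MEF was at least 25.4-fold higher than D6 and at least 26.8-fold higher than D9, and ESC was at least 14.9-fold higher than D9. ESC held 55.1% of the MEF level. Intervals and floors of this kind cover counting error only.

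Ntf5 encodes neurotrophin-4/5, the other TrkB ligand, and was the ligand that did not follow Bdnf and Ntf3 (chromosome 7 at 45413695 to 45417179, plus strand). It had 1.26 and 1.10 CPM in MEF, 0.485 and 0.473 in D3, 1.59 and 1.54 in D6, 2.60 and 2.88 in D9, and 2.98 and 3.20 in ESC. Levels were lowest at D3 and then higher at D6 and again at D9. ESC lay next to D9, with the nearest libraries at 2.98 and 2.88 CPM. The fitted differences were -1.29 ± 0.27 (log2, SE) for D3 with MEF, 1.70 ± 0.26 for D6 with D3, 0.81 ± 0.22 for D9 with D6 and 0.17 ± 0.21 for ESC with D9. In ESC the level was 263% of MEF, from 221 reads against 70.

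The 2 Trk receptors had few reads throughout, and most of these were in MEF. Ntrk2, which spans 58806569 to 59133970 of chromosome 13 on the plus strand, had 3.29 and 3.75 CPM in MEF and 0.323 and 0.266 in D3. It had 0.412 and 0.181 CPM in D6, 0.161 and 0.101 in D9, and 1.71 and 0.908 in ESC. MEF was above all other groups, and D3 and D6 overlapped. Ntrk2 fell by 3.56 ± 0.42 (log2, SE) from MEF to D3, from 212 reads to 21, and was higher by 3.31 ± 0.50 in ESC than in D9. ESC held 37.2% of the MEF level.

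Ntrk3, which spans 78175959 to 78738012 of chromosome 7 on the minus strand, had 53 and 44 reads in MEF (1.96 and 1.34 CPM) and 10 and 5 reads in D3. The other 3 stages had 0 to 3 reads per library. MEF was 7.67 times D3, with a 95% interval of 4.43 to 14.2 from the counts, and 57.8 times ESC, with an interval of 15.6 to 484. Among D6, D9 and ESC no order can be given, since their totals were 1, 5 and 2 reads. Ntrk3 was the gene of the 7 whose ESC level, at 1.70% of MEF, was as low as that of fibroblast markers.

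For both Trk genes the reads in MEF were mostly assigned to a transcript whose coding sequence stops early and so leaves out the kinase domain, as in the known truncated forms of TrkB and TrkC. The coding ends are shown because they tell the forms apart. Each line gives the last 15 shared coding bases in lower case and the first bases of that form alone in capitals, 5′ to 3′ along the transcript, from GENCODE M21 (GRCm38).
Ntrk2-202, shorter: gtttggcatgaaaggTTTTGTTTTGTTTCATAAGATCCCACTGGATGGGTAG
Ntrk2-201, full length: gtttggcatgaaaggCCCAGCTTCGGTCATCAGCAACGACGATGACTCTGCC
Ntrk3-002, shorter: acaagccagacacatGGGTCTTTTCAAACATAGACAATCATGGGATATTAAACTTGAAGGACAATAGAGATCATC
Ntrk3-001, full length: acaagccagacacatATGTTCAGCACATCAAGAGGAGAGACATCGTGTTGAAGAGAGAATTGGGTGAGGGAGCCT
The line for Ntrk2-202 ends with the stop codon TAG. This form has 1431 coding bases with the stop, of which the first 1394 are shared with the 2466 of Ntrk2-201. Its last coding part lies at 58932023 to 58932057 of chromosome 13. Ntrk3-002 has 1839 coding bases, of which 1585 are shared with the 2478 of Ntrk3-001, and the lines show only the start of its own stretch of 254 bases.

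In MEF, 208 of 212 Ntrk2 reads (98.1%) were assigned to the shorter form, with 88 and 120 in the 2 libraries. In D3 it held 20 of 22, in D6 19 of 20, in D9 5 of 10 and in ESC 77 of 91 (84.6%), counting reads rounded for each transcript. The full-length form had 4 reads in MEF and 14 in ESC, so the fall of Ntrk2 between MEF and D3 was a fall of reads assigned to the shorter form. For Ntrk3, 78 of 97 reads in MEF (80.4%) were on the shorter form and 8 on full-length forms. In D3, another full-length transcript, Ntrk3-005, held 12 of 15 reads, 8 and 4 in the 2 libraries, and the shorter form 2. Full-length Ntrk3 reads were therefore few in both MEF (8) and D3 (12), and most of the drop lay in the shorter form. Noncoding transcripts also went from 11 reads in MEF to 1 in D3. The full-length reads in MEF were mostly on Ntrk3-001 (6 of 8), and such assignments depend on few reads.

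**Figure D2:**
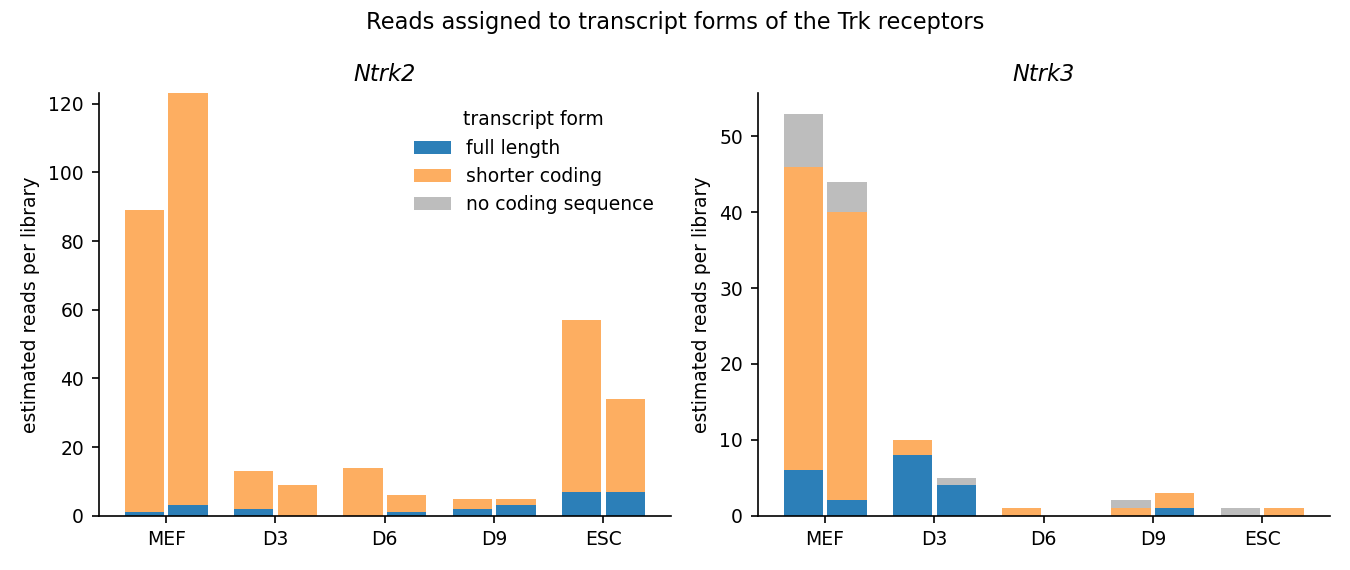
Estimated reads per library (vertical axis) assigned to forms of Ntrk2 and Ntrk3, with 1 bar for each of the 2 libraries of a group and colours for full-length, shorter coding and noncoding transcripts. The MEF bars are mostly shorter form, at 208 of 212 reads for Ntrk2 and 78 of 97 for Ntrk3.

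Genes on the opposite strand overlap Bdnf and Sort1 (1 each), Ntrk3 (2) and Ntrk2 (3), and whether strand was used in counting is not given in the sources used here, so their values may include such reads. On the same strand, Gm43099 overlaps Sort1, Gm44607 and Gm39038 overlap Ntrk3, and C630044B11Rik overlaps Ntrk2. Whether reads were shared with these genes was not tested. Ngfr, Ntf3 and Ntf5 have no overlap on either strand in GENCODE M21.

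Compared per length, the order of the 7 genes changed with stage. In MEF, Bdnf led with 2.80 ± 0.104 TPM (SD, n = 2), close to Sort1 with 2.43 ± 0.0856, and the other 5 were between 0.238 and 0.528. In D6, Ngfr (35.5) and Sort1 (5.12) were followed by Ntf5 (0.423) and Bdnf (0.168), and both Trk genes were under 0.02 TPM. In ESC, Sort1 (2.37 ± 0.00856) and Ngfr (2.28 ± 0.0324) were nearly level, and Bdnf had 1.01 ± 0.0908.

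Counted against the thresholds used for other genes (adjusted p under 0.05 by the edgeR quasi-likelihood test and at least a 2-fold difference), 2 of the 7 were higher and 5 lower in D3 than in MEF, where 14.6% of 20165 tested genes were higher and 14.5% lower. For D6 with D3, 2 were higher and 2 lower (all genes: 9.26% and 10.2%). For D9 with D6 the counts by edgeR were 0 and 0 (5.18% and 2.68%), with 3 at adjusted p alone, 3 at an unadjusted p under 0.05 and 0 called by DESeq2. For ESC with D9, 3 were higher and 2 lower (18.6% and 14.3%), and for ESC with MEF, 2 and 3 (25.5% and 20.6%). The 7 genes were chosen with these comparisons known, so nothing is read from their counts. Scaled by total reads alone, 18.9% of all genes were higher and 12.3% lower in D3 than in MEF, and 32.5% and 15.6% in ESC, and the median gene moved to 0.29 and 0.44 on the log2 scale. Consecutive comparisons share a group, for example D3 in the first and the second.

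ESC were grown on feeder cells, which are themselves fibroblasts, so the ESC values are set beside fibroblast markers. The 10 fibroblast markers had 1.11% (Lum) to 14.0% (Thy1) of their MEF level in ESC. Bdnf (34.1%), Ntrk2 (37.2%), Ntf3 (55.1%), Sort1 (92.1%), Ntf5 (263%) and Ngfr (407%) were above that range. The part of feeder cells in these ESC levels was not tested. The plot of ESC level against MEF level shows each value.

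**Figure D3:**
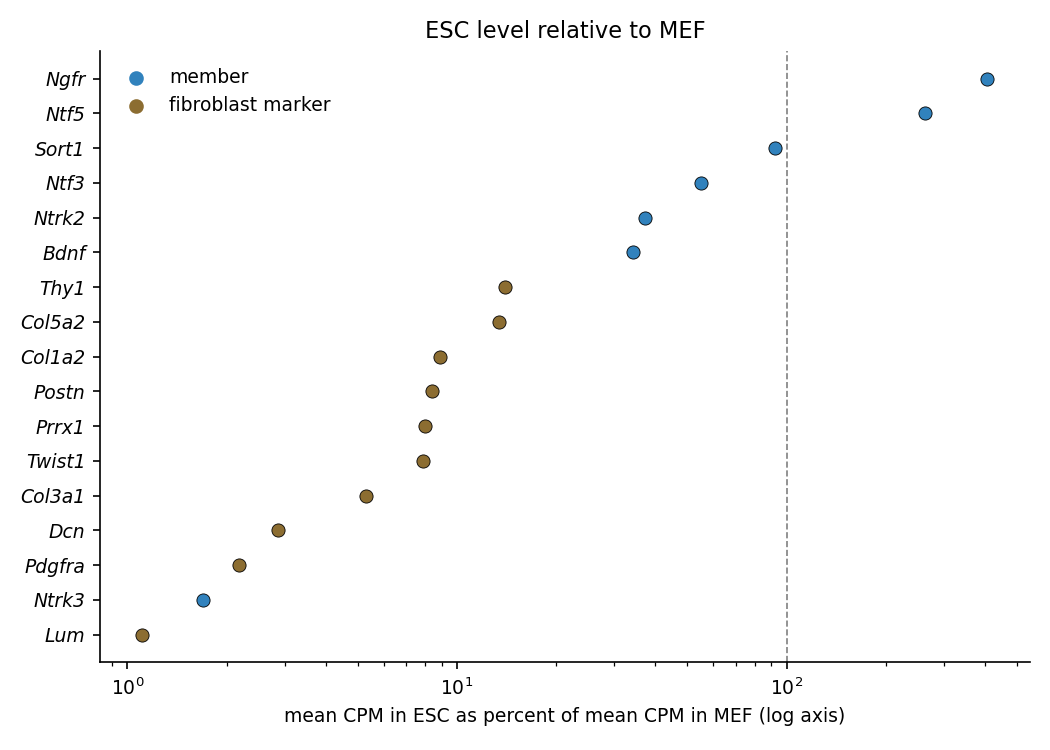
Mean CPM in ESC as percent of mean CPM in MEF (horizontal log axis) for the 7 genes and 10 fibroblast markers, 1 point per gene from 2 libraries a group. The markers run from 1.11% to 14.0%, and of the 7 genes only Ntrk3, at 1.70%, falls in that range.

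Markers of other cell types known for p75 were also read. Of 7 Schwann cell and neural crest markers, Sox10 and S100b were among those under 0.5 CPM in D3, D6 and D9, while the sum of the 7 was 13.4 to 13.9 CPM in MEF, 73.6 to 74.6 in D3, 106 to 110 in D6 and 113 to 117 in D9. Most of that sum in the induced stages was Mbp, a myelin gene, at 67.5 CPM in D3, 94.0 in D6 and 65.6 in D9, and Erbb3 added 42.9 CPM in D9. The sum of 8 neuron markers was 171 to 172 CPM in MEF, 139 to 147 in D3, 121 to 125 in D6, 139 to 143 in D9 and 342 to 350 in ESC. Stmn2 made up most of it in the induced stages (39.5 CPM in MEF, then 121, 96.8 and 105), Tubb3 had 95.4 CPM in MEF and 0.467 in D3, and Rbfox3 and Elavl3 were under 0.5 CPM from MEF to D9. The sum of 6 basal and stratified epithelial markers was 2.70 to 3.87 CPM in MEF and 4.86 to 5.58 in ESC. It was 1.01 to 1.53 CPM in D3, 12.9 to 13.6 in D6 and 88.6 to 88.7 in D9. Nearly all of it in D6 and D9 was Col17a1 (12.3 CPM in D6 and 59.2 in D9) and Krt6a (26.3 in D9). Trp63 and Krt15 were under 0.5 CPM in D6 and D9. Sums of 5 pericyte and smooth muscle markers were 1175 to 1205 CPM in MEF and 16.2 CPM in D6. Those of 5 endothelial markers were 8.63 to 9.64 CPM in MEF, 130 to 133 in D3, 128 to 133 in D6, 77.4 to 78.6 in D9 and 106 to 111 in ESC. By amount this was mostly Tek, at 2.33 CPM in MEF and 121, 109 and 68.3 in D3, D6 and D9. Cdh5 also rose, from 0.138 CPM in MEF to 7.54, 9.39 and 3.39. Kdr went from 2.13 CPM in MEF to 1.80, 11.3 and 4.68, and Pecam1 from 0.381 to 0.925, 1.33 and 1.57. Emcn fell from 4.15 CPM in MEF to under 0.5 in these 3 stages. In ESC most of the sum was Pecam1 (99.0 CPM). The 4 blood cell markers summed to 9.20 to 10.3 CPM in MEF and were highest in ESC, at 78.5 to 80.3. In D3 their sum was 19.7 to 21.8 CPM, with 12.7 from Lyz2. In D6 it was 4.44 to 6.02, with 4.59 from Cd68, and in D9 it was 7.52 to 8.23. The 5 simple epithelial markers summed to 14.9 to 17.4 CPM in MEF, 15.7 to 17.4 in D3 and 242 to 248 in D6. Their sum was 1167 to 1215 CPM in D9, led by Epcam (449 CPM in D9) and Cdh1 (414), and 570 to 572 in ESC. The part of such cells in the Ngfr level was not tested.

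The genes whose log2 CPM followed each of the 7 most closely over the 10 libraries were found among 11902 protein-coding genes. For Ngfr these were Wdr35, an intraflagellar transport gene, and Apobec1, an RNA-editing deaminase (both Pearson r = 0.999), with 409 genes at 0.95 or more. Apobec1 went from 4.15 CPM in MEF to 75.7 in D6 and 12.3 in ESC. For Bdnf they were the collagen gene Col1a2 (0.996) and Snai2 (0.995), a transcription factor of mesenchymal cells, and Snai2 had 60.9 CPM in MEF, 0.510 in D6 and 8.03 in ESC. Ntf3 was followed by Tfpi2 (0.997) and Plekhg4 (0.996), Ntf5 by Mapk8ip1 (0.993) and Adgrb2 (0.989), Ntrk2 by Nova1 and Fosl1 (both 0.982), and Ntrk3 by Tmbim6 (0.986) and Pea15a (0.985). Sort1 was followed by Ugt1a6a and Purb (both 0.998), and Ugt1a6a is uncertain because genes of its locus share exons. The 10 points are pairs of libraries from 5 stages, so these values describe a shared course and are given with no p. Between members, r was -0.99 for Ngfr and Ntf3, 0.92 for Ngfr and Sort1, 0.95 for Ntf3 and Ntrk2, and -0.04 for Ngfr and Ntf5. Ntf3 had 0 or 1 read per library at D3, D6 and D9, and Ntrk3 0 to 3 at D6, D9 and ESC. Their log2 CPM there depends on the prior count. A high r also does not mean changes of like size. From MEF to ESC, Tmbim6 went from 354 to 211 CPM and Ntrk3 from 1.65 to 0.0281.

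Beyond the 7 genes, 74 genes of the pathway were read in 5 lists, of which 69 were tested. In D3, 6 were higher and 14 lower than in MEF, or 8.70% and 20.3% against 14.6% and 14.5% of all genes, with a median log2 difference of -0.20 against 0.08. For D6 with D3, 8 were higher and 18 lower (11.6% and 26.1%, against 9.26% and 10.2% of all genes), with a median of -0.27 against 0.03. For D9 with D6, 4 were higher and 3 lower (5.80% and 4.35%, against 5.18% and 2.68%). For ESC with D9, 14 were higher and 10 lower (20.3% and 14.5%), near the 18.6% and 14.3% of all genes. For ESC with MEF, 13 were higher and 26 lower (18.8% and 37.7%, against 25.5% and 20.6%), with a median of -0.75 against 0.10. Setting genes with 0 reads in a group at their bound left these medians unchanged to 2 decimals.

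Among 9 tested relatives and co-receptors, 1 was higher and 4 lower in D3 than in MEF (11.1% and 44.4%, against 14.6% and 14.5% of all genes). In ESC, 5 were higher and 2 lower than in D9 (55.6% and 22.2%, against 18.6% and 14.3%). Sorcs2, a sortilin relative that also binds p75, had 161 CPM in MEF and 2.92 in D3, a fall of 5.79 ± 0.08 (log2, SE), and 25.9 CPM in ESC. Lingo1, a co-receptor of p75, rose to 12.1 CPM in D3 from 4.56 in MEF (1.42 ± 0.12) and was back at 3.96 in D6. Sorcs1 was higher at D6 (7.30 CPM) than at D3 (2.94) and lower at D9 (1.79). Sorl1, which encodes a sorting receptor of the sortilin family, went from 2.21 CPM in D3 through 4.58 in D6 and 17.5 in D9 to 76.4 in ESC, with each step called. Nradd, a p75 relative, was lower in ESC than in MEF by a log2 difference of -1.66 ± 0.05. The sortilin relatives thus had courses of their own next to the plateau of Sort1.

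Of 15 tested genes for cleavage of precursors and shedding of receptors, 1 was higher and 4 lower in D3 than in MEF. These are 6.67% and 26.7%, against 14.6% and 14.5% of all genes. In D6, 1 was higher and 7 lower than in D3 (6.67% and 46.7%, against 9.26% and 10.2%). Among the lower were Plat and Plau, which encode activators of plasminogen, whose active form plasmin cuts precursor neurotrophins outside cells. Plat fell from 129 to 5.01 CPM between MEF and D3 (-4.68 ± 0.07). Plau fell from 10.1 to 1.01 CPM between D3 and D6 (-3.31 ± 0.16). The matrix protease gene Mmp9 fell from 10.1 to 0.555 CPM by D3 (-4.19 ± 0.31). The proprotein convertase gene Pcsk6 rose from 8.84 to 69.5 CPM at D3 (2.97 ± 0.08) and fell to 19.5 at D6, and Pcsk5 fell from 22.0 CPM in D6 to 8.38 in D9. Furin, the convertase in the secretory pathway, had 195 CPM in MEF, 142 in D3 and 52.6 in ESC, and passed the thresholds only for ESC with MEF (-1.89 ± 0.04). Cpe, a carboxypeptidase also known as a sorting receptor for BDNF, fell from 373 CPM in D3 to 103 in D6 and 51.2 in D9. In ESC, Mmp9 (6.14 CPM), Plau (15.5) and Plat (17.4) were all higher than in D9, in libraries that also held the fibroblast markers given above.

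Of 14 intracellular partners of p75, 2 were higher and 2 lower in D3 than in MEF (14.3% each), near the 14.6% and 14.5% of all genes. In D6, 2 were higher and 1 lower than in D3 (14.3% and 7.14%, against 9.26% and 10.2%). For D9 with D6, 0 of 14 were called by edgeR, where 5.18% of all genes were higher and 2.68% lower. Of the 14, 10 passed there at adjusted p alone, 11 at an unadjusted p under 0.05, and 0 were called by DESeq2. Bex1, a small adaptor that binds the p75 tail, rose from 1.85 CPM in MEF to 7.62 in D3 and 72.3 in D6 (3.24 ± 0.06 for D6 with D3) and reached 197 in ESC. Its relative Bex2 rose from 4.13 to 43.5 CPM between D3 and D6. The p75-binding genes of the MAGE family moved the other way, with Maged1 falling from 874 to 415 CPM at D3 (-1.08 ± 0.04) and Ndn from 102 to 38.2 (-1.42 ± 0.06). Ndn then went from 12.8 CPM in D6 to 7.57 in D9 and 20.6 in ESC. Irak1, a kinase downstream of p75, was lower in ESC than in D9 (-1.12 ± 0.04).

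Of 23 adaptors and effectors of Trk receptors, 2 were higher and 2 lower in D3 than in MEF, and 19 were not called. That is 8.70% each way, against 14.6% and 14.5% of all genes. For D9 with D6, 1 was higher (4.35%) and 22 were not called, where 5.18% of all genes were higher and 2.68% lower. The adaptor gene Shc2 fell from 39.7 to 7.65 CPM at D3 (-2.38 ± 0.08). The docking protein gene Gab1 rose from 40.5 to 109 CPM at D3 (1.43 ± 0.04) and stood at 280 in ESC, and Irs2 rose to 78.6 CPM at D3 (1.05 ± 0.05) and was at 7.38 in ESC. Gab2 and Irs1 fell from D3 to D6, by 1.52 ± 0.09 and 1.27 ± 0.07. Plcg2, a phospholipase C gene known mainly from blood cells, rose from 1.81 CPM in D3 to 12.0 in D6 and 35.1 in D9, and Pik3r1 was lower in ESC than in D9 (-1.09 ± 0.07). These adaptors serve many receptors besides Trk.

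Of 8 tested genes that neurotrophins are known to induce in neurons, 2 were lower in D3 than in MEF, against 14.5% of all genes. In D6, 1 of the 8 was higher and 5 lower than in D3, against 9.26% and 10.2% of all genes. In ESC, 2 of the 8 were higher and 6 lower than in MEF, against 25.5% and 20.6% of all genes. The immediate early genes Egr1, Fos and Junb had 719, 1429 and 397 CPM in D3 and 181, 315 and 88.9 in D6, falls of 1.99 ± 0.04, 2.18 ± 0.04 and 2.16 ± 0.06. Egr2 fell from 37.4 to 3.05 CPM (-3.61 ± 0.10). Nr4a1 and Dusp6 were lower in ESC than in D9, by 1.96 ± 0.04 and 1.82 ± 0.04. Serum and many other growth factors induce the same genes, and D6 differed from D3 by sorting, whose part was not tested.

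**Figure D4:**
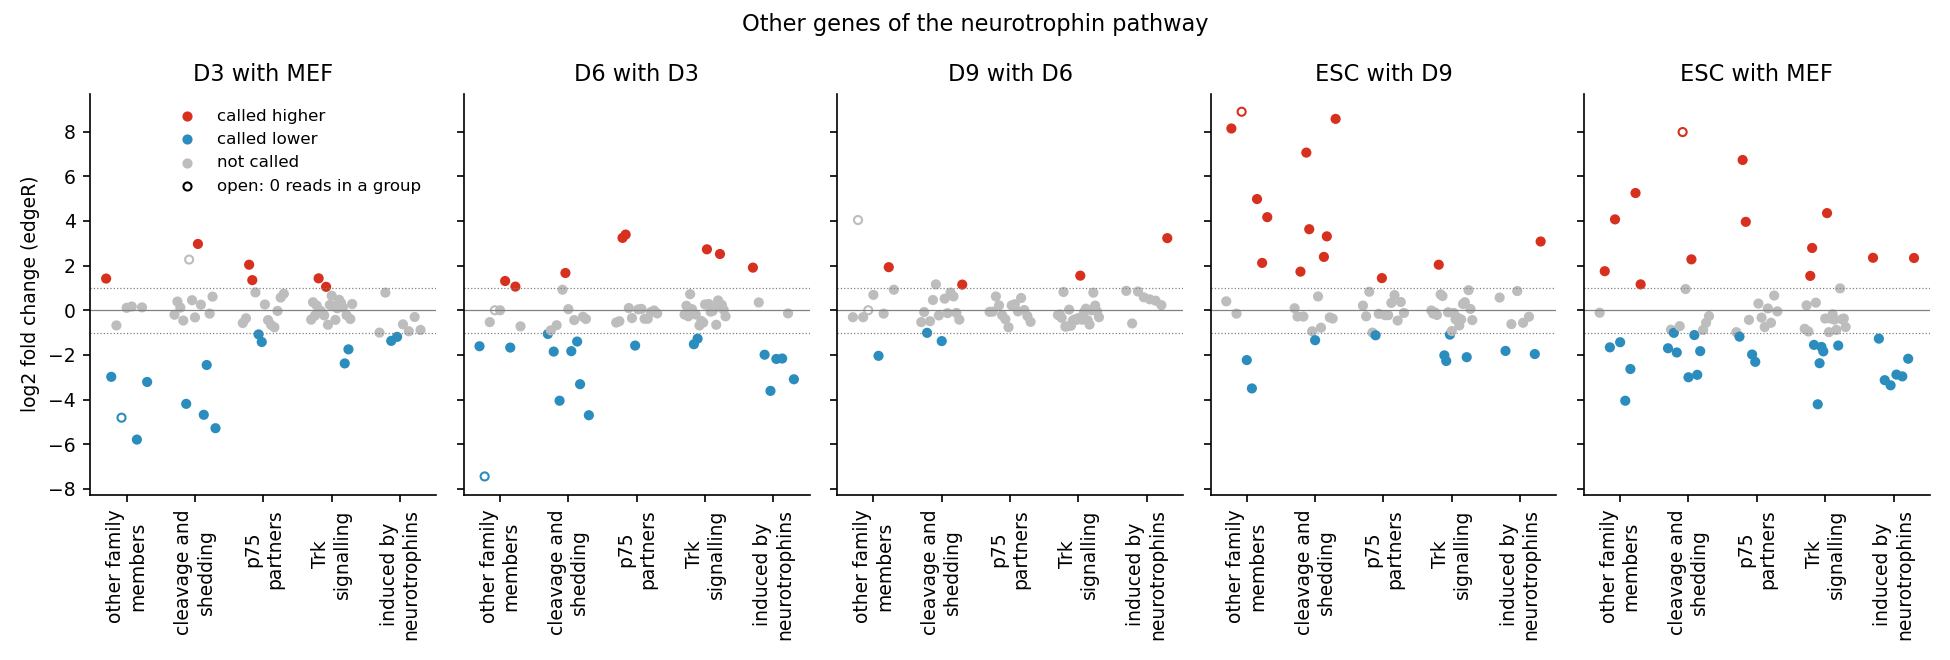
Fitted log2 fold change (edgeR, vertical axis) of the 69 tested pathway genes in 5 lists, 1 panel per comparison, with colours for calls at adjusted p under 0.05 and 2-fold and open points where a group had 0 reads, whose fitted values depend on the prior count. Calls are most numerous for ESC with MEF (13 higher, 26 lower) and fewest for D9 with D6 (4 and 3). Among all tested genes the shares were 25.5% and 20.6% for ESC with MEF and 5.18% and 2.68% for D9 with D6.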

How the data were processed

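RNA-seq libraries of 10 mouse cell samples were analysed, 2 in each of 5 groups taken from the sample titles. Per the submitters' processing notes, Salmon 0.8.2 and the build mm10 were used. The annotation release and counting strand are not given in the sources used here. The deposited tables list 109617 transcripts, each with Salmon's estimated count and its TPM per the file headers. These were summed here to 45706 genes by the gene ID and symbol in each transcript name. Effective lengths were identical in all tables.

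Gene sums were rounded to whole numbers, kept by filterByExpr (minimum count 10, minimum total 15; 20165 genes), scaled with TMM and fitted with the edgeR 4.0.16 quasi-likelihood test over all 10 libraries (R 4.3.3), which pools the spread. P-values were adjusted by Benjamini-Hochberg over all tested genes. A gene was called at adjusted p under 0.05 with a difference of at least 2-fold either way. The fit was tested on simulated data. The common biological coefficient of variation was 3.75%. Replicate pairs differed by more than sampling noise (chi-square per degree of freedom 2.91 to 5.42). Levels are means of 2 libraries with SD, and fitted differences have SE.

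The 7 members and all lists were chosen with earlier results of these data known, so their fitted differences and calls are a description and carry no p. Pathway genes are named by rule: up to 4 called genes per list and comparison with the largest change at 5 CPM or more. Some genes this rule names are not reported here. Genes most like a member are the 2 with the highest Pearson r of log2 CPM (prior count 2), predicted Gm and Rik genes left out. Full-length Trk transcripts have at least 2000 coding bases in GENCODE M21, matched by transcript ID without version. Marker and GDNF family genes named singly were picked after their values were seen. Alternatives were DESeq2 1.42.0, other filters and scaling, 2 groups only, calls by adjusted p alone, a replicate block, leaving out each library, and limma 3.58.1 on log2 of TPM with 1 or 0.1 added. Sums and intervals were made in Python 3.11.15 with pandas 2.3.3 and scipy 1.17.1, and plots with matplotlib 3.10.9.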

Additional observations from a re-analysis of the deposited data

How the results depend on the processing

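Calls among the pathway genes numbered 20, 26, 7, 24 and 39 for D3 with MEF, D6 with D3, D9 with D6, ESC with D9 and ESC with MEF. With limma on log2(TPM + 1), which compresses low values, the first 4 were 13, 11, 3 and 14. With no fold change minimum the 5 counts were 56, 53, 46, 61 and 64. With 10 CPM in 2 libraries, where 58 pathway genes are tested, D9 with D6 gave 4. The other totals stayed within 1.5 times, but counts by direction moved more. With limma on log2(TPM + 0.1), higher calls were 5 in place of 8 for D6 with D3 and 2 in place of 4 for D9 with D6, and lower calls were 5 in place of 10 for ESC with D9. At 10 CPM in 2 libraries, higher calls were 5 for D6 with D3 and 9 in place of 14 for ESC with D9, and lower calls were 1 in place of 3 for D9 with D6. Leaving out 1 library gave 20 to 21, 23 to 25, 5 to 7, 24 to 25 and 39 to 42. A replicate block gave 20, 25, 7, 24 and 39. Equal replicate numbers did not deviate together (r from -0.02 to 0.022 over 10 pairs of groups), so no pairing was seen. This check cannot exclude pairing, because deviations within 2 libraries also hold counting noise. Of 394 values of the 7 genes under alternatives, 0 that passed the thresholds changed sign and 14 others differed in sign. The D6 with D3 value of Ntrk3 (-3.53) was -2.70 and below the thresholds without D6 replicate 2, and Bdnf for D9 with D6 passed them without D6 replicate 1 (-1.04). Sort1 for D3 with MEF missed them under DESeq2 (0.91), with 2 groups only (0.97) and at 10 CPM in 2 libraries (0.95), and Bdnf there when scaled by total reads alone (-0.98). With limma on log2(TPM + 1), Ngfr alone of the 7 passed, in every comparison but D9 with D6. On log2(TPM + 0.1), the members that missed were Ntf5 for D3 with MEF (-0.84), Ntrk3 for D6 with D3 (-0.56), Ntrk2 (0.81) and Sort1 (-0.92) for ESC with D9, and Ntrk2 for ESC with MEF (-0.84). Depth limits Ntf3, Ntrk2 and Ntrk3 most, which had 0 to 21 reads per group at D3 to D9.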

Other observations

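The GDNF family, another group of neurotrophic factors with receptors of its own, was read for comparison, and 8 of its 9 genes were tested. Nrtn, which encodes the ligand neurturin, rose from 0.582 ± 0.0393 CPM (SD, n = 2) in MEF to 16.0 ± 1.95 in D3 (log2 difference 4.77) and stood at 25.6 in D6, 28.0 in D9 and 9.77 in ESC. Ret, the signalling receptor of the family, rose from 3.89 to 13.1 CPM at D3 (1.74) and had 6.93 in D6 and 3.50 in D9. The co-receptor gene Gfra1 fell from 80.8 CPM in MEF to 1.98 in D3 (-5.35) and had 0.194 in D6 and 15.8 in ESC. Gdnf itself had 3.73 CPM in MEF and 5.15 in D3, and fell to 0.134 in D6 (-5.22). Artn, which encodes artemin, fell from 2.15 to 0.0565 CPM at D3 (-5.16), and Gfra2 from 2.08 to 0.312 (-2.73). Of the 8 genes, 2 were higher and 4 lower in D3 than in MEF, where 14.6% and 14.5% of all genes were, and the median was -1.41, or -1.28 with Gfra3, at 0 reads in D3, set at its bound. These genes were named after their values were seen.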
